A study of Mus musculus with 6 samples.

Results

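The unfolded protein response and the folding machinery of the endoplasmic reticulum (ER) were followed through 38 genes, chosen by name for their known roles with earlier results of these data in view, among the 41128 features measured by RNA sequencing in embryonic mouse lenses. All 38 were found in the data. They comprise ER chaperones and their cofactors, disulfide isomerases and an oxidase, the stress sensors with XBP1, the ATF4 and CHOP branch, ER-associated degradation (ERAD) and 2 genes of the translocon. Lenses were taken at stage E15.5, and each of the 2 groups gave 3 libraries. Conditional knockout (cKO) lenses came from mice homozygous for floxed alleles of Itgb1, the gene of β1-integrin, that carried the MLR10 Cre transgene on a strain background labelled as mixed, with 30 lenses pooled per library. MLR10 drives Cre from a modified αA-crystallin promoter in the epithelium and fibers of the lens. The wild-type (WT) lenses were C57Bl/6, with neither floxed alleles nor Cre named in their labels, with 75 lenses pooled per library. The WT records repeat samples of an earlier series. Deletion of Itgb1, presence of Cre and strain background therefore differ together between the groups and cannot be told apart. Lenses per pool and reads per library split by group as well, as would any difference from the earlier series. These cannot be separated from genotype either. The p-values measure the spread between pools of lenses.

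Proteins of the plasma membrane, the lens capsule and the secretory pathway are folded in the ER. When unfolded proteins accumulate there, the sensor IRE1 splices Xbp1 mRNA, ATF6 is cleaved to release a transcription factor, and PERK phosphorylates eIF2α, which lowers translation in general and raises that of ATF4. XBP1 and ATF6 are known for inducing chaperones, isomerases and degradation genes, whereas ATF4 is known for inducing CHOP, amino acid metabolism genes and the eIF2α phosphatase subunit GADD34. Lens fibers lose their ER and other organelles as they mature, and ER stress responses have been described in lenses of mice that carry mutant collagen IV or mutant lens membrane proteins.

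The libraries held 20036554 to 28095318 reads in cKO and 10023049 to 11531139 reads in WT, so 1 read was worth 0.0356 to 0.0998 CPM (reads of a gene relative to all reads of its library, on a fixed total). Itgb1 itself averaged 258 ± 19.8 CPM in cKO, against 425 ± 22.97 CPM in WT (SD, n = 3 each), with a log2 fold change of -0.72 (adjusted p = 1.63e-05 by limma). This value counts reads over the whole gene, so reads from outside the floxed part are included. Lens fiber markers summed to 229809.7 to 262071.9 CPM in cKO and 250566.8 to 269562.3 CPM in WT, and 3 of 11 of them passed the test. Lens epithelium markers summed to 942 to 1126 CPM in cKO and 959.7 to 997 CPM in WT, with 2 of 6 passing. The libraries therefore carried the defining transcripts of lens in both groups.

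A gene was called when its Benjamini-Hochberg adjusted p over all genes tested was under 0.05 in limma on log2(CPM + 1). Fold changes are on that scale, cKO minus WT, which understates the change of low genes. Of the 38 genes, 36 reached 1 CPM in at least 3 libraries and were tested. Cebpb, a transcription factor that pairs with CHOP, had 4, 6 and 4 reads in cKO and 0, 0 and 2 reads in WT. Derl3, a derlin of ER-associated degradation, had 5, 6 and 7 reads in cKO and 6, 6 and 1 reads in WT. Neither depth allows a difference to be read for these 2 genes.

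The genes that changed went in both directions: most tested genes of the ATF4 and CHOP branch rose, a few chaperone, isomerase and degradation genes fell, and none of the sensor genes passed the test. Of the 36 tested, 13 (36.1%) were called, a share close to the 36.9% of all 11941 genes tested. In cKO 8 were higher and 5 lower, where 20.9% of all genes were higher and 15.9% lower. By edgeR on recovered reads the split was 6 higher and 6 lower, and it was 7 and 7 once GC content and gene length were corrected for. Calls over all genes also became more even, at 2388 higher and 2388 lower by edgeR and 2073 and 2132 with that correction. Of the 36, the number called higher was 4 without cKO replicate 3 and 5 without WT replicate 2. The libraries of the groups did not overlap for 17 of the 36, beside 48.1% of all genes. The median log2 fold change of the 36 was 0.050, against 0.026 over all genes tested. It was 0.027 against 0.029 without cKO replicate 3, and -0.024 against -0.001 with the correction for GC content and gene length. Summed over all 38 genes, the level was 5496 to 5834 CPM in cKO and 5667 to 5823 CPM in WT, so the ranges overlapped. By role, the ATF4 and CHOP branch held 6 of the 8 genes called higher, and the chaperones and isomerases held 4 of the 5 called lower.

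**Figure D1:**
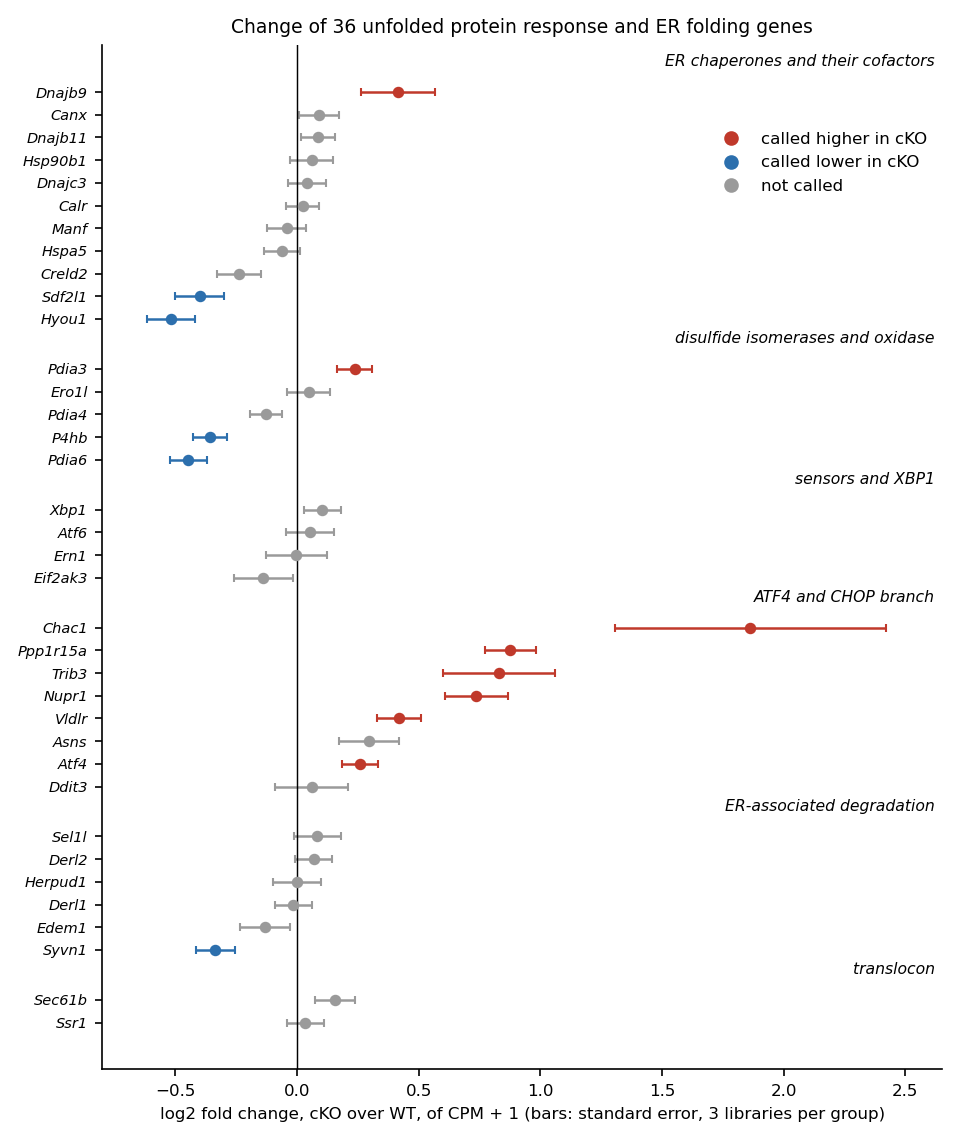
Log2 fold change of CPM + 1, cKO over WT, for the 36 tested genes grouped by role, as points with standard errors from limma (3 libraries per group). Red points were called higher, blue points lower and grey points were not called. The ATF4 and CHOP branch lies at or right of 0.060 throughout, while Hyou1, Pdia6, Sdf2l1, P4hb and Syvn1 lie left of -0.33.

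The promoters show which of these genes carry the sequence elements known for the branches of the response, and they are printed for genes that fell, rose or were not called. RefSeq windows of 250 bases before to 50 after the start site (GRCm38.p6) were matched by symbol for 34 of the 38 genes, in 36 windows. No window was matched for Hyou1, Manf, Atf6 and Derl1. Both strands were searched for 4 motifs, and no matches overlapped each other. The ER stress response element (ERSE), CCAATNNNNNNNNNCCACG, bound by ATF6 together with NF-Y and also by XBP1, was found in 9 of the 36 windows (25%) and in 39 of all 32851 windows (0.119%). It was present at Hspa5, Hsp90b1, Calr, Canx, Creld2, Dnajc3, Pdia6, Syvn1 and Derl3. The related ERSE-II, ATTGG and CCACG parted by 1 base, was found at Herpud1 and Dnajb11, in 5.56% of the gene set's windows and 0.0365% of all. The UPRE core, TGACGTG, was found at Hspa5 (2.78% of the windows, 2.01% of all). The ATF4 composite core, TGATGNAA, was found at Chac1, Trib3, Asns, Nupr1, Vldlr and Herpud1 (16.7% of the windows, 3.97% of all). The genes were listed for belonging to this response, so the shares carry no test. The windows of the called genes Ppp1r15a, Atf4, P4hb, Sdf2l1, Pdia3 and Dnajb9 held none of these letters, which says only that they are not in these windows.

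Of the 8 tested genes with an ERSE, 0 were called higher and 2 lower by limma, beside 20.9% and 15.9% of all genes. By edgeR 0 of the 8 were higher and 3 lower, beside 2388 higher and 2388 lower of all 11941 genes. The median log2 fold change of these 8 genes was -0.019. The 2 called lower by limma were Pdia6 and Syvn1, edgeR added Creld2, and the first pair are shown here beside Hspa5, the gene of the chaperone BiP, which was not called. The 250 bases before each start site are given 5′ to 3′ on the strand of the gene, with the fixed letters of a motif in capitals. They lie at chr2:34771840-34772089 (plus strand) for Hspa5, chr12:17266339-17266588 (plus strand) for Pdia6 and chr19:6046326-6046575 (plus strand) for Syvn1. Hspa5 has the UPRE core 157 bases and the ERSE 65 bases before the start site, Pdia6 an ERSE 98 bases and Syvn1 an ERSE 44 bases before it.
Hspa5: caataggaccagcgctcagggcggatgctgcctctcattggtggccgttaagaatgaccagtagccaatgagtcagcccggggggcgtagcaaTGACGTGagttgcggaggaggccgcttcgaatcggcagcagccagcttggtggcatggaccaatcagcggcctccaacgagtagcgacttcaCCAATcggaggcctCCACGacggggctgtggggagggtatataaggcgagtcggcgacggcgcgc
Pdia6: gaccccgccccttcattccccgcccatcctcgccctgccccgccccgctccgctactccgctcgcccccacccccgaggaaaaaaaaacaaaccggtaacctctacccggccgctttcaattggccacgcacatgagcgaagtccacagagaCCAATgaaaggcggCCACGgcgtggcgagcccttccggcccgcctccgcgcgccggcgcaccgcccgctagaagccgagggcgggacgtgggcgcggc
Syvn1: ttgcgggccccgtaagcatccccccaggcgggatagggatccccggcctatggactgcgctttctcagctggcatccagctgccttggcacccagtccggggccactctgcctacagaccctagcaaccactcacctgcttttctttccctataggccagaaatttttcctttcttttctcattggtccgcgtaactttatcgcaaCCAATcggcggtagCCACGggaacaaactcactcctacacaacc

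Of the 6 genes with an ATF4 composite core, 4 were called higher and 0 lower by limma, beside 20.9% and 15.9% of all genes. By edgeR 3 were higher and 0 lower, and Chac1 was not called (adjusted p = 0.0709). The median log2 fold change of the 6 was 0.58. All but Herpud1 belong to the ATF4 and CHOP branch, chosen with earlier results of these data known, so these counts carry no test. By limma Chac1 and Nupr1 were called higher, and Herpud1, which carries both an ERSE-II and an ATF4 composite core, had a log2 fold change of 0.001 and was not called. Their windows lie at chr2:119350992-119351241 (plus strand), chr7:126625471-126625720 (minus strand) and chr8:94386179-94386428 (plus strand). The capitals mark the ATF4 core, which lies on the opposite strand to the gene in all 3 and is therefore printed as its reverse complement, and in Herpud1 also the ERSE-II.
Chac1: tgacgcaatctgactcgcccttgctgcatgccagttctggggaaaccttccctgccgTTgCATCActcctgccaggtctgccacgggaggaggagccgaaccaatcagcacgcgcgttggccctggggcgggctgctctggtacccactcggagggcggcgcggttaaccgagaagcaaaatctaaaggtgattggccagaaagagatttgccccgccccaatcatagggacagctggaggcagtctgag
Nupr1: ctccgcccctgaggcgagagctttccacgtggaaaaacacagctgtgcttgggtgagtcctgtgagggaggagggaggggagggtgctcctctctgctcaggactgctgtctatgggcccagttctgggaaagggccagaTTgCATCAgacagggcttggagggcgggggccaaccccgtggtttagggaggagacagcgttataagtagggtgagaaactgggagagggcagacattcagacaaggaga
Herpud1: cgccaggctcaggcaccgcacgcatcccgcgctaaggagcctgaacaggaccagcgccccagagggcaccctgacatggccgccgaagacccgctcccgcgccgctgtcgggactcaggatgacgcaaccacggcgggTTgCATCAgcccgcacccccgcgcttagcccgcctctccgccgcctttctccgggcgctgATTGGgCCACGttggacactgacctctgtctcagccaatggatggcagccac

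**Figure D2:**
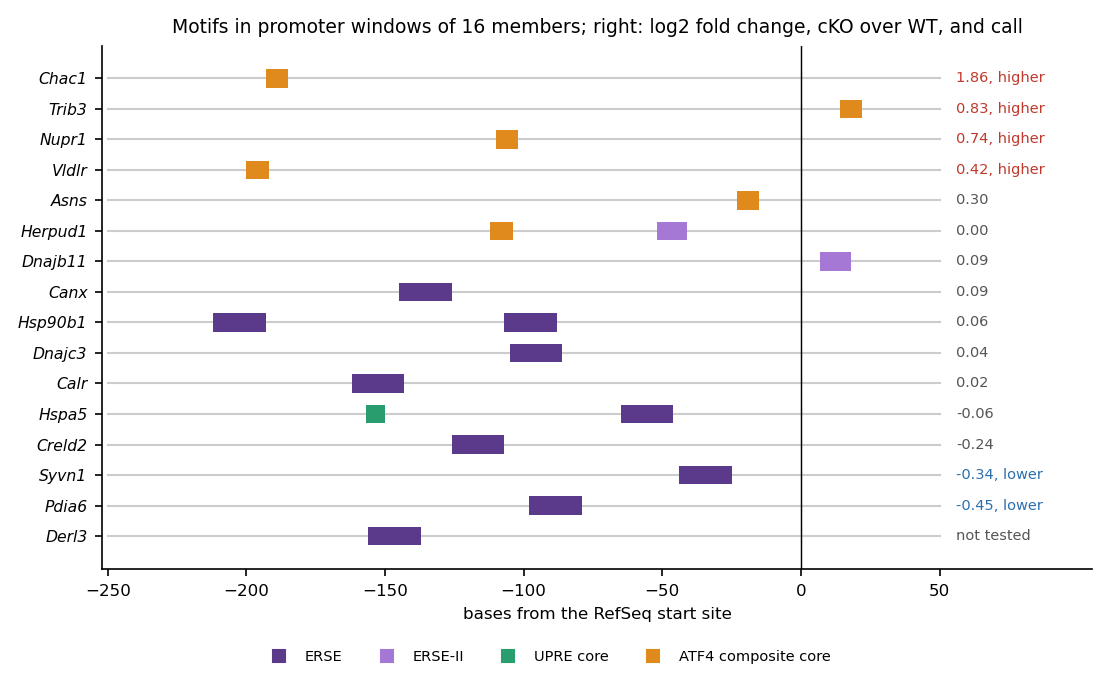
Position of 4 motifs, in bases from the RefSeq start site, in the promoter windows of the 16 genes with a match, with the log2 fold change (cKO over WT) and the call at the right. Among these 16, the 4 genes called higher carry the ATF4 composite core (orange). The 2 called lower, Pdia6 and Syvn1, carry an ERSE (purple). All genes with the ATF4 core except Herpud1 belong to the ATF4 and CHOP branch. The genes were chosen with earlier results known, so this split carries no test. A match marks letters in the window and does not show that a factor binds there.

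Of 11 chaperone and cofactor genes, 1 was called higher and 2 lower, beside 20.9% and 15.9% of all genes. The 2 that fell, Hyou1 and Sdf2l1, encode partners of BiP or its co-chaperones. The best known chaperones, BiP, calreticulin and calnexin, did not pass the test. The 11 genes had a median log2 fold change of 0.023 and together summed to 2319 to 2614 CPM in cKO and 2473 to 2545 CPM in WT. Hspa5 encodes BiP, the main HSP70 chaperone of the ER lumen, and its mRNA is a common readout of the response. It had 431, 483 and 487 CPM in cKO and 514, 474.5 and 471 CPM in WT. Those values overlapped, with a log2 fold change of -0.060 (SE 0.074, adjusted p = 0.561), and Hspa5 was called in none of the 17 alternative analyses.

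The glycoprotein chaperone genes Calr and Canx were also not called. Calr, for calreticulin, had 659, 675 and 660 CPM in cKO and 692, 632 and 641 CPM in WT (log2 fold change 0.023, adjusted p = 0.823). Canx, for its membrane-bound relative calnexin, was at 0.090 (adjusted p = 0.424), and Hsp90b1, for the ER form of HSP90, was at 0.060 (adjusted p = 0.627), with 15.7% of its exonic bases covered by exons of other genes. The BiP co-chaperone genes Dnajb11 and Dnajc3 and the secreted ER protein gene Manf had log2 fold changes of 0.087, 0.040 and -0.043.

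Hyou1 (ENSMUSG00000032115; GRCm38 chromosome 9, 44379490 to 44392369, plus strand) encodes the large ER chaperone that exchanges nucleotides on BiP. It had 114, 152 and 145 CPM in cKO and 186, 196 and 206 CPM in WT. Every cKO library was below every WT library, and Hyou1 fell by 0.52 on the log2 scale (SE 0.098, adjusted p = 0.00133), to a mean of 137 ± 20.1 CPM in cKO against 196 ± 9.93 CPM in WT. Sdf2l1 (ENSMUSG00000022769; chromosome 16, 17130138 to 17132383, minus strand), whose product forms a complex with the co-chaperone encoded by Dnajb11, had 9.38, 10.2 and 9.36 CPM in cKO and 13.7, 12.3 and 13.2 CPM in WT. The groups were again apart, with a log2 fold change of -0.40 (SE 0.10, adjusted p = 0.00766). Dnajb11 itself was not called (adjusted p = 0.36).

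Creld2, an ER-resident gene known to be induced by ATF6, had 22.7, 26 and 25.4 CPM in cKO and 31.05, 27.1 and 29.8 CPM in WT. Its libraries did not overlap, but the log2 fold change of -0.24 narrowly missed the threshold (adjusted p = 0.0543). It was called lower with TMM or RLE scaling, limma-voom, edgeR and DESeq2. Dnajb9, a co-chaperone known as a target of XBP1, was the only chaperone gene called higher. It had 10.5, 10.2 and 12 CPM in cKO and 10.3, 7.98 and 5.99 CPM in WT. The groups overlapped, and the log2 fold change of 0.41 (SE 0.15, adjusted p = 0.0488) lost its call in 15 of 17 alternatives and was 0.24 without WT replicate 3.

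Genes of disulfide bond formation went both ways. Of the 5 genes of this role, 2 were called lower and 1 higher, beside 15.9% and 20.9% of all genes. For 4 the groups did not overlap, beside 48.1% of all genes. Pdia6 (ENSMUSG00000020571; chromosome 12, 17266545 to 17284770, plus strand), an isomerase that also binds BiP and IRE1, had 805, 785 and 735 CPM in cKO and 1139, 1029.9 and 1002 CPM in WT. It fell by 0.45 on the log2 scale (SE 0.074, adjusted p = 0.000552), to 775 ± 35.9 CPM in cKO against 1057 ± 72.05 CPM in WT. P4hb (ENSMUSG00000025130; chromosome 11, 120560298 to 120573253, minus strand) encodes protein disulfide isomerase, which is also a subunit of the collagen prolyl 4-hydroxylase. It had 187, 198 and 194 CPM in cKO and 263, 239 and 242 CPM in WT. Every cKO library was lower, with a log2 fold change of -0.36 (SE 0.070, adjusted p = 0.0016).

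Pdia3 (ENSMUSG00000027248; chromosome 2, 121413775 to 121438687, plus strand), the isomerase that works with calnexin and calreticulin on glycoproteins, moved the other way. It had 468, 470.4 and 465 CPM in cKO and 428, 395 and 369.6 CPM in WT. The groups did not overlap, with a log2 fold change of 0.24 (SE 0.072, adjusted p = 0.0201). Leaving out any of cKO replicates 2 and 3 and WT replicates 2 and 3 ended the call, with adjusted p between 0.0514 and 0.0752. Pdia4 had 189.6 to 192.4 CPM in cKO and 203.6 to 213.4 CPM in WT, apart but not called (log2 fold change -0.13, adjusted p = 0.147). The oxidase gene Ero1l, whose product recharges protein disulfide isomerase, was at 0.048 (adjusted p = 0.701).

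Per length, Pdia6 averaged 207 RPKM (CPM per kilobase of gene) in cKO and 282 RPKM in WT, rank 104 of the 11941 genes tested by the mean over all libraries. Within the summed RPKM of the 4 isomerase genes, Pdia6 took 42.5%, 41.4% and 40.1% in cKO and 49.2%, 48.3% and 48.5% in WT. Pdia3 took 29.5%, 29.6% and 30.2% in cKO and 22.05%, 22.1% and 21.3% in WT. Pdia4 took 15.1% to 15.8% in cKO and 13.9% to 14.9% in WT, and P4hb 12.9% to 13.9% in cKO and 14.7% to 15.3% in WT. Because the shares sum to the whole, a lower share of 1 gene raises the others, and they show unequal change only. The summed level of the 5 genes of this role was 1652 to 1715 CPM in cKO and 1881 to 2102 CPM in WT, without overlap. Pdia6 is the largest part of these sums, at 735 to 805 CPM in cKO and 1002 to 1139 CPM in WT. The sums therefore do not show a fall of the role as a whole.

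**Figure D3:**
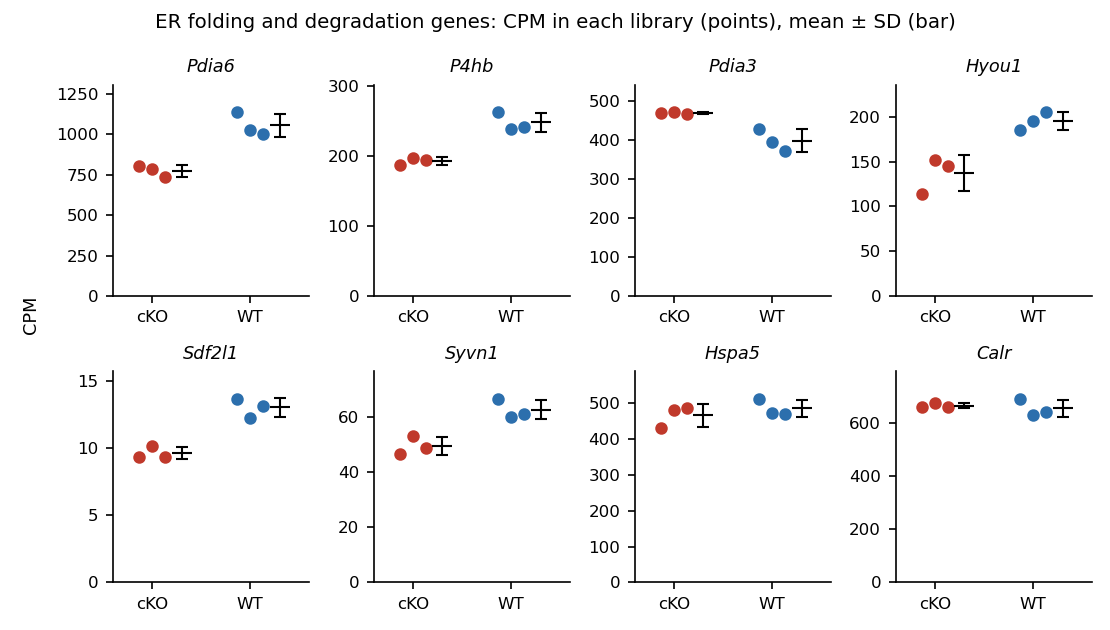
CPM of 8 ER folding and degradation genes in each library (points, cKO red and left, WT blue and right) with mean ± SD beside them (n = 3 per group); each axis starts at 0. Pdia6, P4hb, Hyou1, Sdf2l1 and Syvn1 have every cKO library below every WT library, Pdia3 has the reverse, and Hspa5 and Calr overlap.

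None of the sensor genes or Xbp1 passed the test. Of 4 genes, 0 were called by limma, beside 36.9% of all genes, and 0 by edgeR. At an unadjusted limma p under 0.05 the count was also 0, and the median log2 fold change was 0.024. So few genes cannot set the role apart from that share. Xbp1 (ENSMUSG00000020484; chromosome 11, 5520659 to 5525893, plus strand) had 44.9, 46.85 and 49.05 CPM in cKO and 41.7, 44.3 and 44.8 CPM in WT. Although these did not overlap, the log2 fold change of 0.10 (SE 0.077) was not called (adjusted p = 0.318). Counts over the whole gene do not separate spliced from unspliced Xbp1 mRNA, so IRE1 activity was not measured. Ern1, the gene of IRE1, had 10.9 to 14.2 CPM in cKO and 11 to 14.7 CPM in WT. Eif2ak3, the gene of PERK, had 8.48 to 11.5 CPM in cKO and 10.3 to 12.1 CPM in WT (log2 fold change -0.14, adjusted p = 0.408). Atf6 had 55.1 to 57.5 CPM in cKO and 46.2 to 62 CPM in WT (log2 fold change 0.052, adjusted p = 0.712). These sensors are regulated largely as proteins, which mRNA levels do not show.

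In the ATF4 and CHOP branch, Atf4 and 5 of the genes known as its targets or targets of CHOP rose, while the CHOP gene itself did not pass the test. Of the 8 tested genes, 6 were called higher and 0 lower by limma, beside 20.9% and 15.9% of all genes. Their median log2 fold change was 0.58, in genes chosen with such results known. By edgeR 5 were higher and 0 lower, and 7 were higher and 0 lower at an unadjusted limma p under 0.05. The 4 genes still called without cKO replicate 3 were Ppp1r15a, Trib3, Vldlr and Nupr1. Summed over the branch, the level was 903, 822 and 1014.5 CPM in cKO and 622, 671.5 and 615 CPM in WT, without overlap. Nupr1, Atf4 and Vldlr make up most of these sums.

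Atf4 (ENSMUSG00000042406; chromosome 15, 80255184 to 80257541, plus strand), the transcription factor of the branch, had 247, 217 and 237 CPM in cKO and 204, 193 and 188 CPM in WT. The groups were apart, with a log2 fold change of 0.26 (SE 0.074, adjusted p = 0.0142). That call was lost without cKO replicate 3 (adjusted p = 0.0627) or without WT replicate 2 (adjusted p = 0.0592). ATF4 is controlled mainly at translation, which these values do not measure. Ddit3, the gene of the pro-apoptotic factor CHOP, had 8.19, 7.92 and 9.5 CPM in cKO and 10.3, 6.22 and 8.28 CPM in WT. Those values overlapped (log2 fold change 0.060, SE 0.15, adjusted p = 0.787). Exons of other annotated genes, among them Mars on the opposite strand, cover 10.9% of the exonic bases of Ddit3.

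Ppp1r15a (ENSMUSG00000040435; chromosome 7, 45522916 to 45526268, minus strand) encodes GADD34, which brings a phosphatase to eIF2α and so restores translation. It had 17.2, 15.3 and 18.1 CPM in cKO and 8.5, 9.38 and 8.28 CPM in WT. The lowest cKO library stood well above the highest WT library, with a log2 fold change of 0.88 (SE 0.10, adjusted p = 4.27e-05), the smallest adjusted p of the 36 genes. In cKO the mean was 193% of that in WT. The call held in all 17 alternatives, with log2 fold changes of 0.83 to 0.99.

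Nupr1 (ENSMUSG00000030717; chromosome 7, 126623249 to 126630861, minus strand), a small nuclear protein induced by many kinds of stress, had 383, 343 and 500.2 CPM in cKO and 244, 271 and 214 CPM in WT. The groups did not overlap, with a log2 fold change of 0.74 (SE 0.13, adjusted p = 0.00145). At 163 RPKM in cKO and 96.6 RPKM in WT, it was the most abundant gene of the branch per length in cKO. Vldlr (ENSMUSG00000024924; chromosome 19, 27216484 to 27254231, plus strand), the very low density lipoprotein receptor gene and in mouse cells a reported target of the PERK and ATF4 pathway, had 192, 196.5 and 192 CPM in cKO and 124, 150.2 and 161 CPM in WT. It rose in every cKO library relative to every WT library (log2 fold change 0.42, SE 0.090, adjusted p = 0.00281), and its call held in all 17 alternatives.

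Trib3 and Chac1 rest on few reads in WT. Trib3 (ENSMUSG00000032715; chromosome 2, 152337422 to 152344032, minus strand), a pseudokinase gene induced by ATF4 and CHOP, had 51, 32 and 67 reads in cKO and 2, 13 and 12 reads in WT, or 2.55, 1.58 and 2.38 CPM in cKO against 0.173, 1.14 and 1.2 CPM in WT. Every cKO library was above every WT library. It rose by 0.83 on the log2 scale (SE 0.23, adjusted p = 0.0129), by 1.65 in limma-voom, and by 0.54 without WT replicate 1, the library with the fewest Trib3 reads. The call held in the 16 alternatives that tested it.

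Chac1 (ENSMUSG00000027313; chromosome 2, 119351229 to 119354381, plus strand) encodes an enzyme that breaks down glutathione. It had 231, 96 and 214 reads in cKO and 3, 12 and 40 reads in WT, or 11.5, 4.75 and 7.62 CPM in cKO against 0.26, 1.05 and 3.99 CPM in WT. The groups did not overlap, but the libraries differed widely within each group, with a mean of 7.96 ± 3.40 CPM in cKO and 1.77 ± 1.97 CPM in WT. Chac1 had the highest log2 fold change of the set, 1.86, but also the largest standard error, 0.56 (adjusted p = 0.0448). It lost its call in 10 of 16 alternatives, among them edgeR (adjusted p = 0.0709) and leaving out cKO replicate 1 or 3 or WT replicate 1 or 2. Asns, the asparagine synthetase gene and a standard ATF4 target, had 40.3, 35.9 and 47.9 CPM in cKO and 30.4, 40.1 and 30.2 CPM in WT, which overlapped (log2 fold change 0.30, adjusted p = 0.0749). Asns was called higher without cKO replicate 2 or WT replicate 2.

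**Figure D4:**
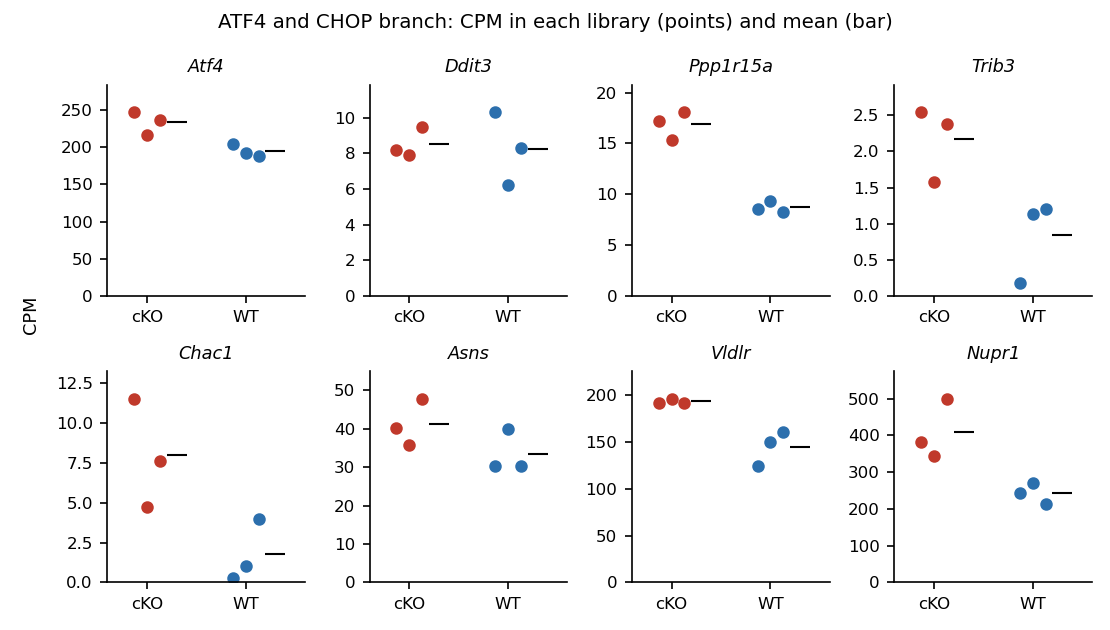
CPM of the 8 tested genes of the ATF4 and CHOP branch in each library (points, cKO red and left, WT blue and right) with the mean of each group as a bar (n = 3 per group); each axis starts at 0. Atf4, Ppp1r15a, Trib3, Chac1, Vldlr and Nupr1 have every cKO library above every WT library, while Ddit3 and Asns overlap.

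Among genes of ER-associated degradation, the ubiquitin ligase gene Syvn1 fell and the others did not pass the test. Of 6 tested, 0 were higher and 1 lower by limma, beside 20.9% and 15.9% of all genes. The counts were the same by edgeR and at an unadjusted limma p under 0.05, and 2 were lower with the GC and length correction. The median log2 fold change was -0.007. Syvn1 (ENSMUSG00000024807; chromosome 19, 6046576 to 6053712, plus strand) encodes HRD1, the ligase that marks misfolded ER proteins. It had 46.7, 53.2 and 48.8 CPM in cKO and 66.9, 60.2 and 61.4 CPM in WT. The groups were apart, with a log2 fold change of -0.34 (SE 0.081, adjusted p = 0.00587), and the call held in all 17 alternatives, at -0.21 (adjusted p = 0.022) with the correction for GC content and gene length. Its partner gene Sel1l had 67.7 to 80.9 CPM in cKO and 64.9 to 79.9 CPM in WT. Herpud1, a strongly stress-inducible component of the same complex, had 48.6, 40.6 and 51.6 CPM in cKO and 42.5, 50.1 and 47.7 CPM in WT, which overlapped (adjusted p = 0.996). Edem1, which delivers glycoproteins for degradation, was at -0.13 and not called, but was called lower at -0.27 (adjusted p = 0.0257) once GC content and gene length were corrected for. The derlin genes Derl1 and Derl2 were at -0.015 and 0.068. The translocon genes Sec61b and Ssr1, which take nascent chains into the ER, had log2 fold changes of 0.16 (adjusted p = 0.158) and 0.033 (adjusted p = 0.769). With the same correction Sec61b was called higher at 0.23 (adjusted p = 0.021). Other genes share 17.4% of the 50-base words of Sec61b, the length of a read.

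Library and cell-type values stood beside these results. Of the 36 tested genes, 15 (41.7%) had their lowest of 6 values in cKO replicate 1, against 28.9% of all genes. The highest value was in WT replicate 1 for 11 (30.6%), against 16.1% of all genes, and in cKO replicate 2 for 10 (27.8%), against 29.6%. Endothelial markers were called higher in 9 of 11, beside 20.9% of all genes. Their summed levels were 233 to 278 CPM in cKO and 144 to 177 CPM in WT. Macrophage markers were called higher in 9 of the 10 tested, beside the same share, with sums of 27.2 to 37.8 CPM in cKO and 11.45 to 14.2 CPM in WT. The tested ones averaged only 0.381 (Tyrobp) to 2.265 (Csf1r) CPM in WT, so these calls rest on few reads. Pericyte markers had 4 of 6 called higher and 1 lower, beside 20.9% and 15.9% of all genes. They summed to 143 to 167 CPM in cKO and 102 to 129.8 CPM in WT. Periocular mesenchyme markers had 3 of 6 tested called higher and 1 lower, beside the same shares. They summed to 200.1 to 238 CPM in cKO and 211 to 253 CPM in WT, with 1 of their 9 genes at 0 in all libraries. Pdgfra, the marker that fell, made up most of their sum, at 163 to 188 CPM in cKO and 193 to 235.5 CPM in WT. The other 8 genes, set apart after these values were seen, summed to 32.7 to 50.7 CPM in cKO and 17.8 to 20.95 CPM in WT, without overlap. Retina and pigment epithelium markers summed to 2.3 to 6.93 CPM in cKO and 0.499 to 10.1 CPM in WT, with 1 of 7 tested, 0 called and 1 at 0 in all libraries. The part of these cells in the changes of the ATF4 branch was not tested, and in pools of whole lenses more cells of a type and more RNA per cell cannot be told apart.

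The wider pathway was read from 5 further lists holding 114 genes, 113 of them tested. In cKO 28 were called higher and 19 lower, together 41.6%, beside the 36.9% of all genes (20.9% higher and 15.9% lower). Once GC content and gene length were corrected for, the lists of folding, translocon and sensor genes each turned to more lower than higher calls. Their higher and lower counts became 3 and 8, 4 and 6, and 1 and 4. The counts over all genes turned the same way, from 2499 higher and 1904 lower to 2073 and 2132. Directions of these lists as a whole are therefore not given.

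Other ER folding genes had 7 of 30 called higher and 6 lower, with a median log2 fold change of -0.011. Leaving out cKO replicate 2 or 3 gave 4 higher, and leaving out cKO replicate 3 gave 3 lower. Serpinh1, the chaperone of collagen, had 295, 288 and 277 CPM in cKO and 422, 386 and 402 CPM in WT, a log2 fold change of -0.49 (adjusted p = 0.000155). The isomerase genes Txndc5 and Pdia5 were also lower, at -0.35 and -0.36, while the ER reductase gene Dnajc10 rose (0.45, adjusted p = 0.00105), as did Hspa13 (0.37) and the thiol-dependent retention gene Erp44 (0.32).

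Other genes of the translocon, the signal peptidase and the oligosaccharyltransferase had 8 of 22 called higher and 5 lower, with a median of 0.11. Srprb, the β subunit of the signal recognition particle receptor, had 37, 37.6 and 38.9 CPM in cKO and 57.4, 60.1 and 57.3 CPM in WT (log2 fold change -0.61, adjusted p = 5.18e-05). Ostc and Rpn2, subunits of the oligosaccharyltransferase, were at -0.38 and -0.34. In the other direction were Sec62 (0.55, adjusted p = 0.000149), a translocon partner, Sec11c (0.48), a signal peptidase subunit, and Ssr3 (0.37), a subunit of the complex that holds Ssr1.

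Other degradation genes had 4 of 18 called higher and 0 lower by limma, 4 and 2 by edgeR, and 4 and 1 at an unadjusted limma p under 0.05. Leaving out cKO replicate 3 or WT replicate 3 gave 2 higher. Vimp, which recruits the p97 ATPase to the ER membrane, was at 0.45 (adjusted p = 0.000884), and Edem3 and Erlec1, which act on misfolded glycoproteins, were at 0.27 and 0.29. Other sensors and regulators had 3 of 15 higher and 3 lower, and the lower count was 1 without WT replicate 2. Ppp1r15b, the constitutive counterpart of Ppp1r15a, had 137.5, 141 and 134 CPM in cKO and 101, 111 and 112 CPM in WT (log2 fold change 0.35, adjusted p = 0.0025). Eif2s1, the gene of eIF2α, was at 0.26 and the adaptor gene Nck1 at 0.27. Mbtps1, the protease that cleaves ATF6, was lower at -0.415 (adjusted p = 0.00354), as were Wfs1 (-0.39) and Tmbim6 (-0.21).

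Other ATF4 target genes were called in both directions. Of 28 tested, 6 were called higher (21.4%, beside 20.9% of all genes) and 5 lower (17.9%, beside 15.9%), shares near the background, with a median log2 fold change of -0.006. Leaving out cKO replicate 3 gave 2 higher. Slc7a11, the cystine transporter, had 55.35, 67.4 and 61.4 CPM in cKO and 138, 155 and 175 CPM in WT. It fell by 1.33 on the log2 scale (SE 0.097, adjusted p = 5.37e-07), to 39.3% of the WT mean. Cth, which makes cysteine, had 0.749, 1.14 and 0.783 CPM in cKO and 3.12, 2.98 and 2.89 CPM in WT (log2 fold change -1.09, adjusted p = 0.000109), and the tryptophan tRNA synthetase gene Wars was at -0.35. The serine synthesis gene Psat1 was higher (0.33, adjusted p = 0.00371), as were the transcription factor gene Atf5 (0.41) and the mitochondrial folate gene Mthfd2 (0.38).

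**Figure D5:**
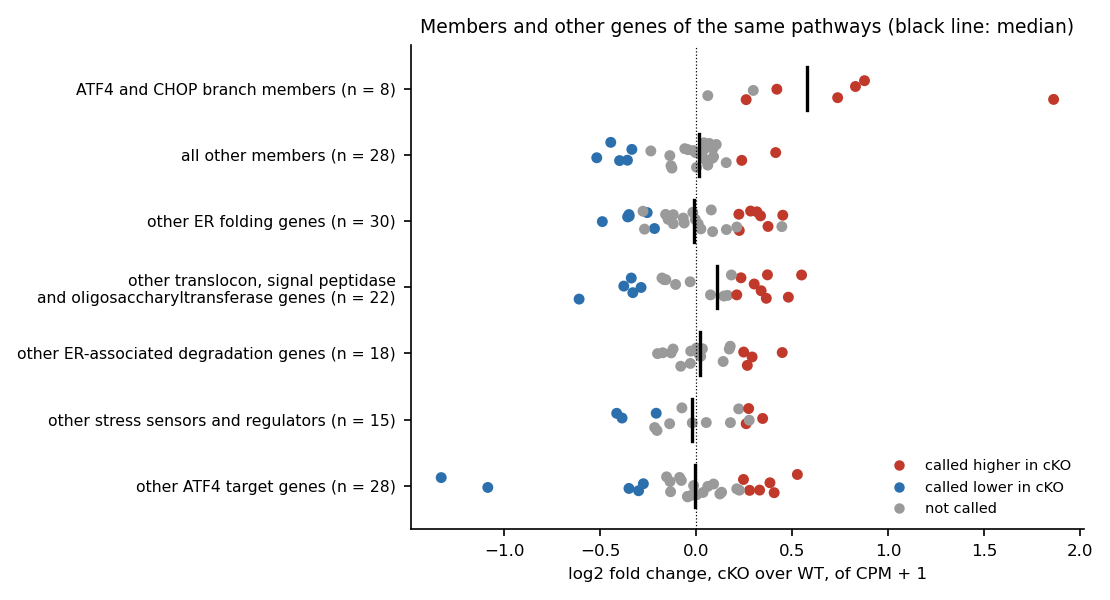
Log2 fold change of CPM + 1, cKO over WT, for the tested genes of the ATF4 and CHOP branch, the other genes of the response and 5 further pathway lists; each point is a gene, red called higher, blue called lower and grey not called, and black lines mark medians. The median is 0.58 for the ATF4 and CHOP branch, while the further ATF4 targets scatter on both sides of a median of -0.006, with Slc7a11 and Cth furthest to the left.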

How the data were processed

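Per the labels' protocols, poly(A) RNA of pooled lenses went into TruSeq v2 libraries, a kit that does not mark strand, and was read as 50-base single ends. The deposited files hold CPM, which the authors scaled to each library's total, and RPKM, which is CPM per kilobase of gene length, per the file headers. Per the submitters' processing notes, edgeR and the build GRCm38 were used. The aligner, counter and annotation are not given in any source used here. In each library 100% of CPM values were whole multiples of 1 read (tolerance 0.02 reads), so read counts were recovered by division from the deposited CPM and used only in alternatives. Coordinates are from GENCODE M21 (GRCm38), and promoter sequences from RefSeq (GRCm38.p6).

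The main test was limma-trend 3.58.1 (R 4.3.3) on log2(CPM + 1) (robust eBayes, group only), over the 11941 genes that reached 1 CPM in 3 or more libraries. RPKM was used only to compare levels between genes and to recover gene lengths. The genes followed, their roles, the pathway lists and the markers were chosen with earlier results of these data known. All 38 genes of the response are reported, with full statistics for those called and for Hspa5, Xbp1, Atf4 and Ddit3, and each pathway list is represented by up to 3 called genes per direction with the smallest adjusted p. Called genes of the response share at most 5.5% of their 50-base words with other genes, and exons of other genes on either strand cover at most 1.87% of their exonic bases. Alternatives were a pseudocount of 0.1, no filter on low values, a minimum mean of 5 CPM, TMM and RLE scaling, a replicate block, correction for GC content and length, limma-voom, edgeR 4.0.16, DESeq2 1.42.0, reads thinned to 10023049 per library, and leaving out each library. Correlations of log2(CPM + 1) were 0.992 to 0.996 within groups and 0.9705 to 0.976 between them, and replicates differed by more than counting noise.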

Additional observations from a re-analysis of the deposited data

How the results depend on the processing

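Of the 13 genes called, 8 kept their call and direction in every alternative that tested them: Hyou1, Sdf2l1, Pdia6, P4hb, Syvn1, Ppp1r15a, Vldlr and Trib3. The other 5 were Dnajb9 (call lost in 15 of 17), Chac1 (10 of 16), Pdia3 (4 of 17), Atf4 (2 of 17) and Nupr1 (1 of 17). Of the 23 genes not called, 18 were called in no alternative and 13 changed sign in at least 1. Dnajc3, not called at 0.040, was called lower at -0.164 under the correction for GC content and length, where Edem1 (lower) and Sec61b (higher) also gained calls, and the cause was not tested. The count of genes called higher was 5 at a mean of at least 5 CPM, where Trib3 and Chac1 were not tested, and 4 to 7 when each library was left out, against 8. The count called lower was 5 when any library was left out and at most 7 in the other alternatives. Over all genes, the calls were 2413 higher and 2363 lower with TMM scaling and 2388 and 2388 by edgeR. Deviations of same-numbered libraries correlated at 0.327, -0.034 and 0.147, and those of differently numbered libraries at -0.314 to 0.207. With 3 libraries per group, these values cannot decide whether the numbers pair the samples. With the replicate number as a block, 6 genes of the response were higher and 6 lower, and over all genes 2916 were higher and 2249 lower. In that fit Nupr1 and Chac1 lost their calls and Creld2 gained one. With reads thinned to 10023049 per library Trib3 and Chac1 kept their calls (adjusted p = 0.0115 and 0.0103), while Cebpb and Derl3 had at most 7 reads in any library.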
